A study of Mus musculus with 16 samples.

Results

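Measured here were 9 genes of the mouse mammary epithelium, Gatb, Dus2, Rhbdl2, Mal, Chst8, Ahcyl2, Cdh13, Dkkl1 and Fbrsl1, in sorted cells of mice with and without Cpeb2, which encodes a cytoplasmic polyadenylation element binding protein. The genes were selected on these same arrays because their RNA was higher in knockout than in wild-type cells of the Sca1-positive luminal populations. They are read by 20 of 45037 probe sets and make up 9 of 17097 genes. Gatb, Rhbdl2 and Mal each have 2 probe sets, Ahcyl2 has 3, Cdh13 and Fbrsl1 have 4, and Dus2, Chst8 and Dkkl1 have 1. Since the rise in the Sca1-positive cells chose the genes, it is given below as a description without a test. Tests are given for the cells that the choice did not use, and a comparison that takes in Sca1-positive arrays is a description wherever it counts the members.

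RNA was measured on Affymetrix arrays in cells freshly sorted from 4 female mice aged 10 weeks, 2 Cpeb2 knockout and 2 wild type, with 4 populations and so 4 arrays per mouse. All 4 mice carried Sox2-Cre, whose promoter drives recombination in the early embryo. The controls called wild type below were Cpeb2 +/+ mice that also had this Cre, and the strain is given as C57BL/6J 129. The populations were non-clonogenic luminal cells (Epcam high, CD49f low, Sca1 positive, CD49b negative), ductal progenitors (the same gate, positive for Sca1 and CD49b), alveolar progenitors (Sca1 negative, CD49b positive) and myoepithelial cells (Epcam low, CD49f high). Each group of genotype and population thus held 2 arrays, and both Sca1-positive populations of a mouse share that mouse. Mouse 1 of each genotype came from the same parents, as did mouse 2.

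Luminal cells line the ducts of the gland, and those that carry Sca1 are largely the cells that express the receptors for estrogen and progesterone. Alveolar progenitors give rise to milk-producing cells, and myoepithelial cells form the contractile outer layer. The 9 genes belong to no common pathway. Gatb and Dus2 act on transfer RNA, Rhbdl2, Mal and Cdh13 sit at membranes, Chst8 modifies glycans in the Golgi, Ahcyl2 is a relative of a methionine-cycle enzyme, Dkkl1 is secreted and Fbrsl1 belongs to the AUTS2 family of nuclear proteins.

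The start sites of several of these genes are shown because the genes moved together, so that their sequences can be set side by side. RefSeq windows (GRCm38.p6, from 250 bases before the start site to 50 after it, on the gene's strand) were given for 7 of the 9 genes, in 11 windows. Capitals mark matches, on either strand, to the motifs GGGCGG (the GC box), AGGTCA (a nuclear receptor core site), TGTTTAC (a forkhead site) and TATAAA. The window of Rhbdl2 at chr4:123787625-123787924 (plus strand) holds 1 GC box, at -16 from the start site, the window of Chst8 at chr7:34812662-34812961 (minus strand) holds 4, that of Dkkl1 at chr7:45211834-45212133 (minus strand) holds 1 AGGTCA at -177, and that of Mal at chr2:127656646-127656945 (minus strand) holds none of the 4 motifs.
Rhbdl2: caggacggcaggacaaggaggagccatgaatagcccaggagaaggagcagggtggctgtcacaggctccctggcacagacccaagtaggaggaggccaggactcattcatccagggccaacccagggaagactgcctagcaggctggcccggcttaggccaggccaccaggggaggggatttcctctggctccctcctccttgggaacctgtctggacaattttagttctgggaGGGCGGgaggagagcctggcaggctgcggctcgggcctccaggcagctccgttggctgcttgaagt
Chst8: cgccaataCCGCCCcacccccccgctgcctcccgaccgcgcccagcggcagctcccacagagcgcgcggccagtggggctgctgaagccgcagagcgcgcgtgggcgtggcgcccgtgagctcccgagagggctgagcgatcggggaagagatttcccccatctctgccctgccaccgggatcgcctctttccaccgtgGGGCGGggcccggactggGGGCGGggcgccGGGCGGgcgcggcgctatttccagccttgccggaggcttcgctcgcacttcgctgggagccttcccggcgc
Dkkl1: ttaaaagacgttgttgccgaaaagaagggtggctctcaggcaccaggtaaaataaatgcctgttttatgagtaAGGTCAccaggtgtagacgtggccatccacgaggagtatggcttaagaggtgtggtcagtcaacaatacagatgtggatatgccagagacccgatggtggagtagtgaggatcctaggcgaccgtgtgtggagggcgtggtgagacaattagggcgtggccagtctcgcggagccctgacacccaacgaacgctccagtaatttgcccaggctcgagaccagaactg
Mal: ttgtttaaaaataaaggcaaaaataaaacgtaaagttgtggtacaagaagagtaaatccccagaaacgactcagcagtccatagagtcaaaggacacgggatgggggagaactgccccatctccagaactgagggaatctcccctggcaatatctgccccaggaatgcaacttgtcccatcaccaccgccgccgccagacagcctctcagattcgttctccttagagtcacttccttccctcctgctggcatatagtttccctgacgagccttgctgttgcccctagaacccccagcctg
The windows differed in composition. The Chst8 window held 38 CpG dinucleotides, Dkkl1 14, Mal 8 and the printed Rhbdl2 window 6, against a median of 7 over 32851 windows of the same length. Among the windows not printed, Dus2 held 33, Ahcyl2 28, 5 and 2, and Fbrsl1 27 and 26. The other Rhbdl2 window held 2 and none of the 4 motifs. GGGCGG was in 6 of the 11 member windows and in 35.7% of all windows, AGGTCA in 3 and 16.3%, TGTTTAC in 1 and 3.65%, and TATAAA in 1 and 13.6%. The matches in the printed windows did not overlap each other, and no motif was in all 11 windows.

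All values are log2 expression as deposited, so a difference of 1 is a doubling. The middle of an array lay at 6.35 to 6.40 and the lower quartile of its probe sets at 5.08 to 5.18. A level was taken as measurable where all 4 arrays of a population lay above the lower quartile. With 2 arrays a group, their number sets the precision. The sorts held their defining genes. The mean of 10 hormone-sensing genes (Esr1, Pgr and Foxa1 among them) was 9.77 to 10.8 in the Sca1-positive arrays and 6.51 to 7.87 in the others. That of 8 myoepithelial genes (Krt5, Krt14, Acta2 among them) was 11.999 to 12.23 in myoepithelial and 6.09 to 7.09 in luminal arrays. The mean of 11 alveolar genes was 9.61 to 10.03 in alveolar progenitors and 6.28 to 6.35 in non-clonogenic luminal cells. Ductal progenitors lay between these, at 7.91 to 8.76, so alveolar genes were not confined to the alveolar sort. Cpeb2 itself (1434272_PM_at) was 8.33 and 8.66 in wild-type and 6.42 and 7.67 in knockout non-clonogenic luminal cells, and 7.88 and 8.00 against 6.39 and 7.35 in ductal progenitors. By this probe set, knockout arrays lay below wild-type arrays in both, but neither difference passed the test (adjusted p = 0.113 and 0.130, limma). By 1443017_PM_at, wild type and knockout overlapped in both, at 6.55 and 7.03 against 5.69 and 6.87, and 6.61 and 6.40 against 5.71 and 6.57. The dimmer 1458518_PM_at also overlapped in both. In alveolar progenitors 1434272_PM_at read 5.52 and 5.53 against 5.45 and 4.81, and in myoepithelial cells 5.41 and 6.03 against 5.25 and 4.71. There, 1443017_PM_at and 1458518_PM_at lay under the lower quartile in all arrays. Whether any of these probe sets reads the deleted part is unknown here.

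Gatb encodes subunit B of the mitochondrial amidotransferase that turns glutamate into glutamine on the glutamine transfer RNA. Its brighter probe set, 1424282_PM_at, read 8.22 and 9.24 in wild-type and 10.45 and 11.12 in knockout non-clonogenic luminal cells, and 7.71 and 9.08 against 10.54 and 11.14 in ductal progenitors. In alveolar progenitors it read 8.18 and 8.26 in wild type and 7.82 and 8.24 in knockout, and in myoepithelial cells 7.47 and 7.46 against 7.19 and 7.29. The knockout Sca1-positive arrays were thus the highest of the 16, more than 1 log2 unit above every other array. The differences were 2.05 ± 0.42 (SE of the fit, 2 mice per genotype) and 2.45 ± 0.42. The second probe set, 1444502_PM_at, gave 1.52 ± 0.31 and 1.62 ± 0.31, so that Gatb was higher by both.

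Dus2 encodes the synthase that reduces uridine to dihydrouridine in transfer RNA and has 1 probe set. It read 6.05 and 6.13 in wild-type and 7.16 and 8.37 in knockout non-clonogenic luminal cells, and 5.69 and 6.43 against 7.50 and 8.14 in ductal progenitors. The differences were 1.67 ± 0.34 and 1.77 ± 0.34, with 3 of the 4 wild-type arrays below the middle of the array. Wild-type and knockout arrays read 6.10 and 6.07 against 5.65 and 5.95 in alveolar progenitors, and 5.69 and 5.75 against 5.29 and 5.65 in myoepithelial cells. All 8 lay above the lower quartile, so the low level there was measurable. In these cells, the knockout arrays were the lower ones.

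Rhbdl2 encodes a rhomboid protease that cuts membrane proteins within the membrane. By 1440618_PM_at it read 6.82 and 6.50 in wild-type and 8.35 and 8.58 in knockout non-clonogenic luminal cells, and 5.59 and 6.80 against 8.79 and 8.59 in ductal progenitors. By 1442819_PM_at it read 6.43 and 6.77 against 7.44 and 7.86, and 7.14 and 6.94 against 7.83 and 7.68. Knockout arrays were above wild-type arrays in both populations by both probe sets, but the sizes differed: 1.80 ± 0.34 and 2.50 ± 0.34 by the first, 1.05 ± 0.19 and 0.71 ± 0.19 by the second. In myoepithelial cells Rhbdl2 was at the bottom of the scale. There, 1 of 4 arrays of the first probe set and 2 of 4 of the second lay above the lower quartile, with values from 4.99 to 5.37.

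Mal encodes a proteolipid of membrane rafts that carries proteins to the apical face of epithelial cells. Its brighter probe set, 1432558_PM_a_at, read 8.08 and 9.01 in wild-type and 10.06 and 10.33 in knockout non-clonogenic luminal cells, and 8.77 and 9.41 against 10.78 and 10.67 in ductal progenitors. In alveolar progenitors the order was the opposite, 9.69 and 9.69 in wild type and 8.62 and 8.94 in knockout. Wild-type alveolar progenitors thus held more Mal than wild-type Sca1-positive cells, and knockout alveolar progenitors held less than knockout Sca1-positive cells. The second probe set, 1417275_PM_at, had the same order of knockout and wild type, with 2.07 ± 0.30 and 1.60 ± 0.30 in the Sca1-positive populations against 1.65 ± 0.28 and 1.64 ± 0.28 by the brighter. By this second probe set, the wild-type alveolar arrays (8.16 and 8.24) overlapped the wild-type ductal progenitor arrays (7.51 and 8.23). In myoepithelial cells, the brighter read 6.98 to 7.41, while the second read 4.63 to 5.20, with 1 of 4 arrays above the lower quartile.

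Chst8 encodes a sulfotransferase that puts sulfate on terminal N-acetylgalactosamine of N-glycans, best known from pituitary hormones. Its single probe set read 5.17 and 6.04 in wild-type and 7.13 and 6.996 in knockout non-clonogenic luminal cells, and 4.90 and 5.65 against 7.22 and 6.74 in ductal progenitors. Alveolar progenitors read 4.59 to 4.67 and myoepithelial cells 4.64 to 4.97 over both genotypes. All 8 of those arrays lay under the lower quartile, so no level of Chst8 was measurable outside the Sca1-positive cells. In wild type it was near that edge even there, with 1 ductal progenitor array under it. The differences were 1.46 ± 0.27 and 1.70 ± 0.27, and such low wild-type values can understate a difference.

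Ahcyl2 encodes a protein related to S-adenosylhomocysteine hydrolase that binds ion transporters and the IP3 receptor. The brightest, 1428195_PM_at, read 9.49 and 9.76 in wild-type and 10.92 and 11.26 in knockout non-clonogenic luminal cells, and 9.39 and 10.07 against 11.32 and 11.11 in ductal progenitors. The next, 1452703_PM_at, was higher by less, 0.83 ± 0.25 and 0.73 ± 0.25, against 1.47 ± 0.27 and 1.49 ± 0.27 by the brightest. The third, 1419730_PM_at, read 6.87 and 6.62 against 7.03 and 6.39, and 6.46 and 6.80 against 6.57 and 6.47, with differences of -0.03 ± 0.22 and -0.11 ± 0.22. It lay above the lower quartile in all 16 arrays and so was not at the bottom of the scale.

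Cdh13 encodes T-cadherin, a cadherin held at the membrane by a glycolipid anchor, and was the one member with its highest wild-type level in myoepithelial cells. By 1434115_PM_at the wild-type Sca1-positive arrays read 5.25, 5.48, 5.47 and 5.31, close to the lower quartile. The knockout arrays read 7.67 and 9.69 in non-clonogenic luminal cells and 8.06 and 9.59 in ductal progenitors. Myoepithelial cells read 9.50 and 9.83 in wild type and 9.20 and 9.61 in knockout. Sca1-positive cells of knockout mouse 2 were therefore within the range of the myoepithelial arrays, and those of mouse 1 were below it. In alveolar progenitors the same probe set read 5.25 and 5.60 in wild type and 5.29 and 5.61 in knockout.

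The differences of Cdh13 were 3.32 ± 0.54 and 3.44 ± 0.54 by 1434115_PM_at, 2.68 ± 0.29 and 2.47 ± 0.29 by 1454015_PM_a_at and 1.79 ± 0.30 and 1.81 ± 0.30 by 1423551_PM_at. The fourth probe set, 1431824_PM_at, stayed at 4.26 to 4.58 in all 16 arrays, myoepithelial ones included, so it read nothing above the bottom of the scale in cells where the other 3 were high. Since myoepithelial cells hold Cdh13 RNA, their defining genes are set beside it. The mean of 8 such genes was 6.09 and 6.17 in wild-type and 6.41 and 6.33 in knockout non-clonogenic luminal cells, and 6.42 and 6.45 against 6.38 and 6.32 in ductal progenitors, against 11.999 to 12.23 in the myoepithelial arrays, and 0 of the 8 passed the test in either. The mean of 5 endothelial genes was 5.46 to 5.63 and 5.55 to 5.99 in these arrays. In bulk arrays, more RNA per cell and more cells that hold it cannot be told apart.

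**Figure D1:**
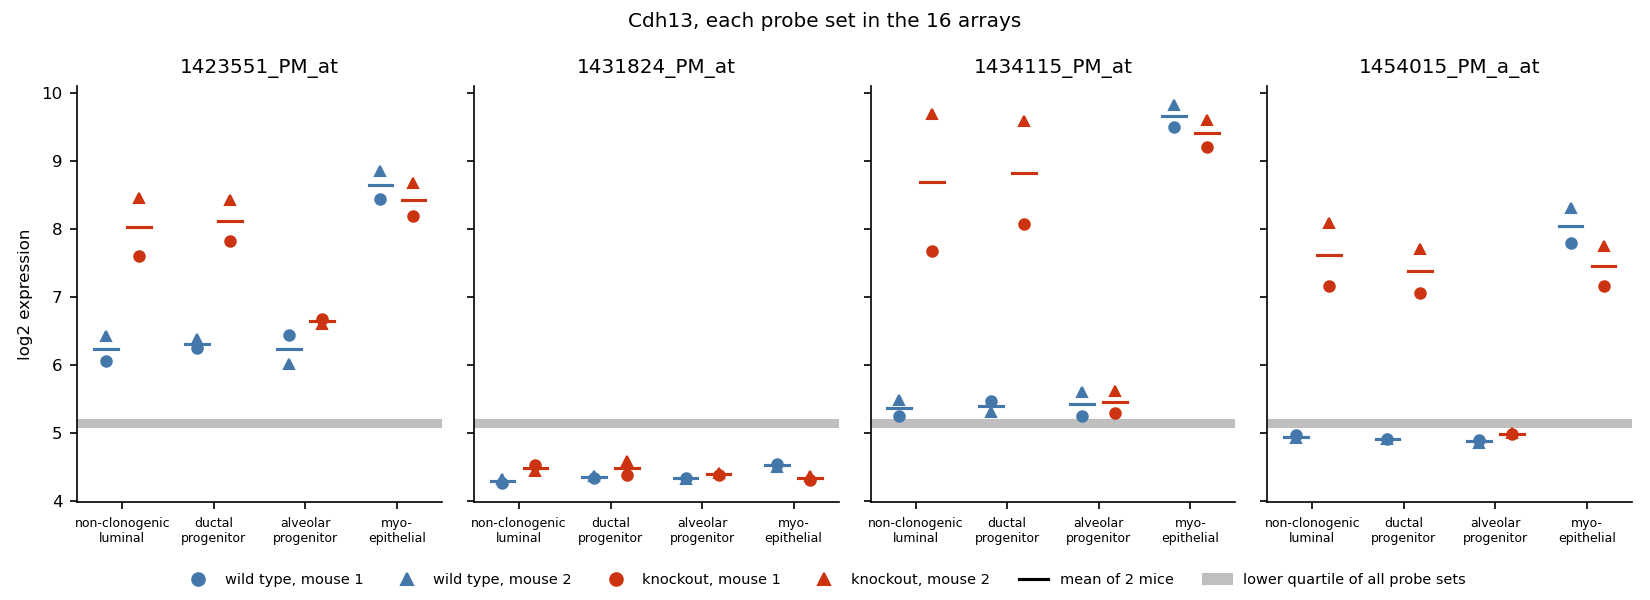
Log2 expression (y axis) of the 4 Cdh13 probe sets in the 4 populations (x axis), 1 point per array, with a bar at the mean of 2 mice and a grey band for the lower quartile of all probe sets (5.08 to 5.18). In 3 probe sets, the knockout Sca1-positive arrays lie above the wild-type ones, by 1434115_PM_at within the myoepithelial range for knockout mouse 2 (9.69 and 9.59) and below it for mouse 1 (7.67 and 8.06), and 1431824_PM_at stays under the band throughout.

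Dkkl1 encodes a secreted relative of the dickkopf proteins, known best from the sperm acrosome. It read 8.44 and 9.43 in wild-type and 9.83 and 10.31 in knockout non-clonogenic luminal cells, and 7.97 and 9.08 against 10.56 and 10.32 in ductal progenitors. Alveolar progenitors read 6.95 and 6.64 against 7.62 and 8.00, and myoepithelial cells 6.06 to 6.20 over both genotypes. The knockout arrays were the higher ones in alveolar progenitors too, with a difference of 1.01 ± 0.36, beside 1.14 ± 0.36 and 1.91 ± 0.36 in the Sca1-positive populations.

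Fbrsl1 encodes fibrosin-like 1. Its brightest probe set, 1434029_PM_at, read 7.99 and 8.65 in wild-type and 9.08 and 10.60 in knockout non-clonogenic luminal cells, and 7.54 and 9.07 against 9.99 and 10.58 in ductal progenitors. The spread between mice of a genotype was wide, and the differences were 1.51 ± 0.51 and 1.97 ± 0.51. By 1458511_PM_at they were 0.92 ± 0.24 and 1.24 ± 0.24, and by 1428403_PM_at 0.90 ± 0.26 and 0.72 ± 0.26. By 1428404_PM_at they were 0.21 ± 0.24 and -0.04 ± 0.24, with overlapping groups in both populations, at levels of 6.76 to 7.64 that are above the middle of the array. Fbrsl1 and Cpeb2 are both on chromosome 5, Chst8 and Dkkl1 are both on 7, and Dus2 and Cdh13 are both on 8. The part of position in the genome was not tested.

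Across the 20 probe sets, the knockout arrays lay above the wild-type arrays with no overlap in 18 in non-clonogenic luminal cells (30.5% of all probe sets did so) and in 18 in ductal progenitors (36.2% of all). These shares follow from how the genes were chosen. All probe sets of Gatb, Rhbdl2 and Mal were higher in knockout in both populations, as were 4 of 4 of Cdh13, 3 of 4 of Fbrsl1 and 2 of 3 of Ahcyl2, but the differences of Cdh13 1431824_PM_at, 0.20 ± 0.07 and 0.13 ± 0.07, lie at the bottom of the scale. The threshold for calls in this fit (adjusted p under 0.05) is not that of the choice, and positions beside it are a description. Closest to it on its inner side were Gatb 1444502_PM_at in non-clonogenic luminal cells, with a difference of 1.52, and Rhbdl2 1442819_PM_at in ductal progenitors, with 0.71. Closest on its outer side were Fbrsl1 1458511_PM_at in the first, with 0.92, and Ahcyl2 1452703_PM_at in the second, with 0.73.

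**Figure D2:**
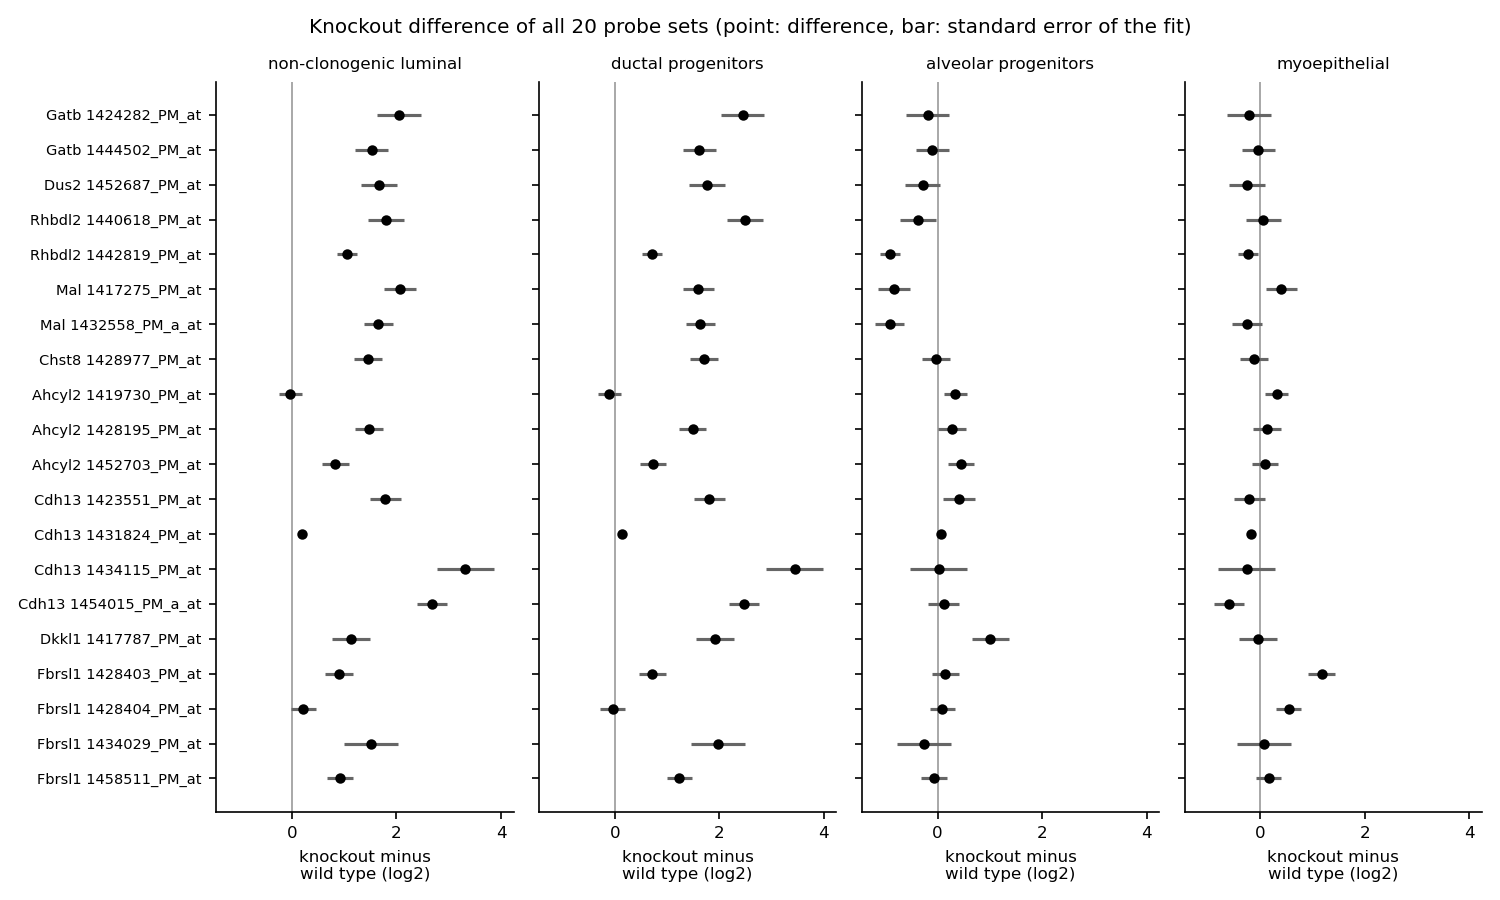
Knockout minus wild type (x axis, log2) for each of the 20 probe sets (y axis) in the 4 populations, with points for the difference and bars for the standard error of the fit. In both Sca1-positive populations most probe sets lie right of 0, with Ahcyl2 1419730_PM_at and Fbrsl1 1428404_PM_at near it, and in alveolar progenitors and myoepithelial cells they lie on either side.

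The level outside the Sca1-positive cells was measurable for most probe sets. In alveolar progenitors, 17 of 20 lay above the lower quartile in all 4 arrays and 11 above the median, and the 3 that were not measurable were Chst8 and Cdh13 1431824_PM_at and 1454015_PM_a_at. In myoepithelial cells, 15 of 20 lay above the lower quartile in all 4 arrays and 10 above the median. The other 5 were Chst8 and Cdh13 1431824_PM_at, in no array, and both probe sets of Rhbdl2 and Mal 1417275_PM_at, in some arrays. At gene level, 8 of 9 genes thus had a measurable probe set in alveolar progenitors and 7 of 9 in myoepithelial cells, the exceptions being Chst8 in both and Rhbdl2 in the latter. On the same arrays, control probe sets that match no mouse RNA read 3.40 to 5.07 with 3 to 16 G or C bases and up to 8.57 with 25. The base content of the member probes is not known here, so a level just above the lower quartile does not by itself show RNA.

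**Figure D3:**
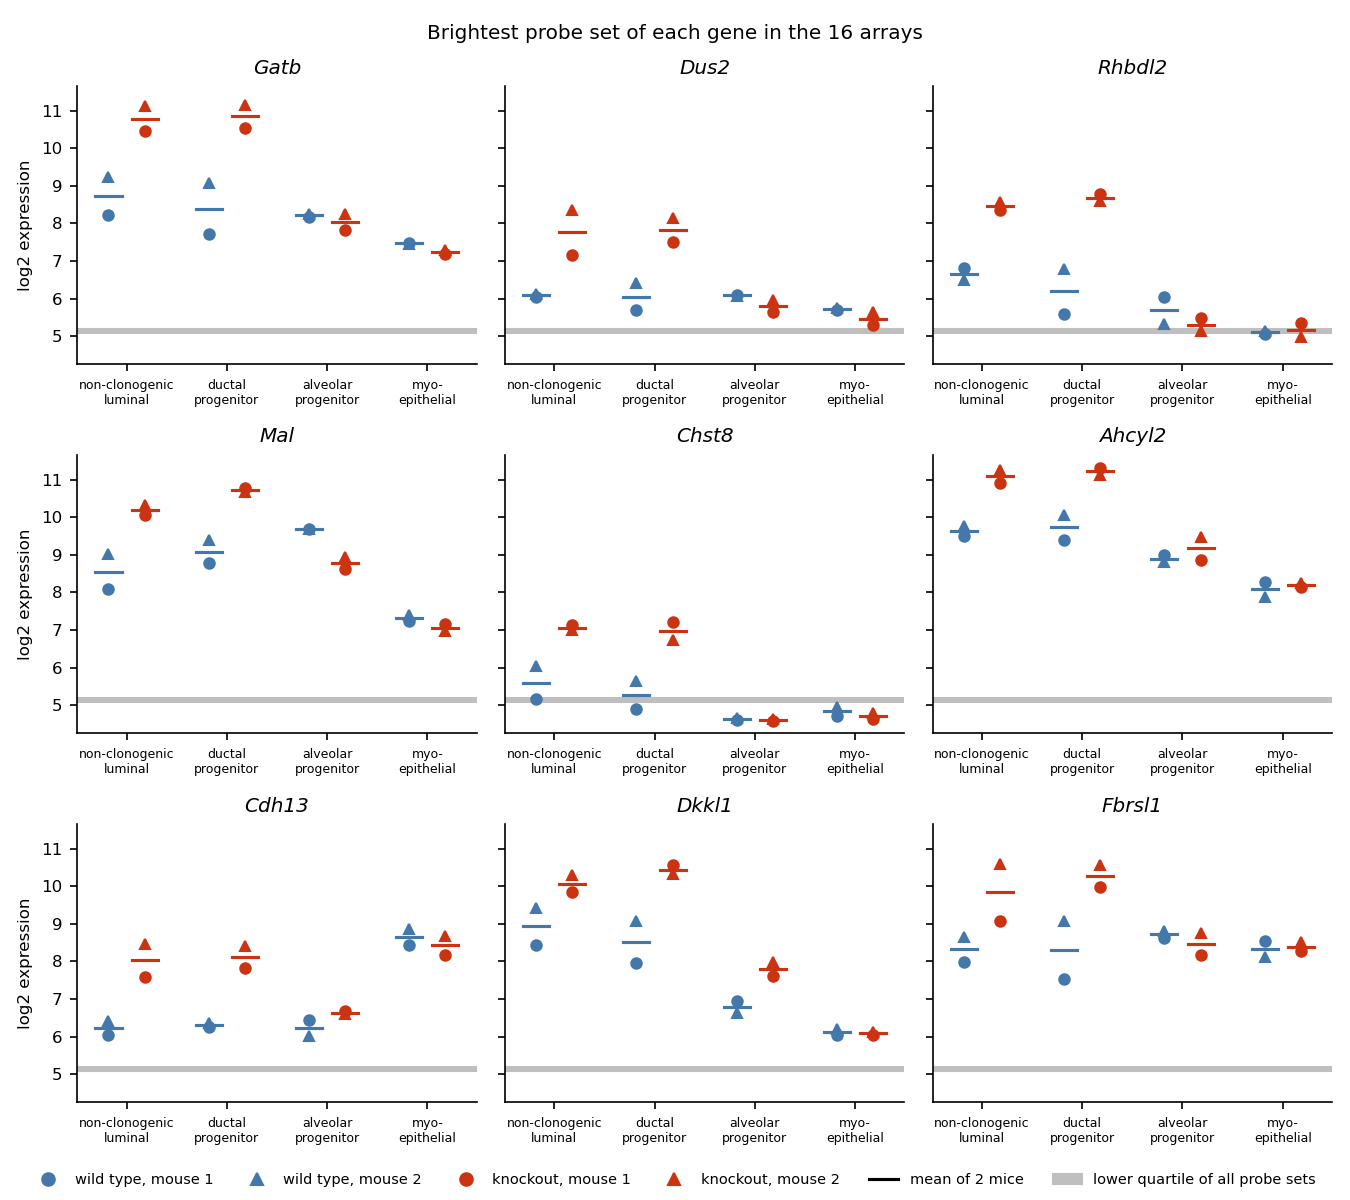
Log2 expression (y axis) of the brightest probe set of each of the 9 genes in the 4 populations (x axis), 1 point per array, with a bar at the mean of 2 mice and a grey band for the lower quartile of all probe sets. The knockout points stand above the wild-type points in both Sca1-positive populations in all 9 panels, and Chst8 lies under the band in alveolar progenitors and myoepithelial cells.

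The knockout effect in alveolar progenitors and myoepithelial cells was not used to choose the genes and was tested by limma over all 45037 probe sets. In alveolar progenitors 0 of 20 probe sets were called in either direction (0.318% of all were), and the lowest adjusted p was 0.0859. An unadjusted p under 0.05 was found for 4 of 20, and for 3886 of all 45037. Their median difference was -0.01, against 0.01 over all probe sets, with 10 higher and 10 lower. Knockout arrays lay above wild-type arrays with no overlap in 7 of 20 (22.8% of all) and below in 4 of 20 (19.8% of all). Those 4 were Dus2, Rhbdl2 1442819_PM_at and both probe sets of Mal. The 7 above were Dkkl1, Ahcyl2 1452703_PM_at, Cdh13 1423551_PM_at, 1431824_PM_at and 1454015_PM_a_at, and Fbrsl1 1428403_PM_at and 1428404_PM_at. Of these, Cdh13 1431824_PM_at and 1454015_PM_a_at lay under the lower quartile in all 4 arrays, and several probe sets read the same gene. The share below is near that of all probe sets, the share above is larger than that of all, and neither count was tested.

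The largest differences in alveolar progenitors were Dkkl1, 1.01 ± 0.36 (95% interval 0.22 to 1.81, adjusted p = 0.390), Rhbdl2 1442819_PM_at, -0.92 ± 0.19 (-1.33 to -0.50, adjusted p = 0.0859), Mal 1432558_PM_a_at, -0.91 ± 0.28 (-1.52 to -0.30, adjusted p = 0.280) and Mal 1417275_PM_at, -0.83 ± 0.30 (-1.49 to -0.18, adjusted p = 0.395). None passed the test after adjustment, whereas the intervals, which are not adjusted for the number of probe sets, left out 0. Rhbdl2 1440618_PM_at gave -0.38 ± 0.34. For Gatb the interval ran from -1.10 to 0.72 and for Dus2 from -1.03 to 0.45. For Ahcyl2 1428195_PM_at it ran from -0.30 to 0.86 and for Cdh13 1434115_PM_at from -1.16 to 1.20.

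In myoepithelial cells 0 of 20 probe sets were called (limma, 0.746% of all were), and the lowest adjusted p was 0.0702. There, 3 of 20 had an unadjusted p under 0.05, as did 5949 of all 45037. The median difference was -0.04, against -0.01 over all probe sets. Knockout arrays lay above with no overlap in 5 of 20 (19.7% of all) and below in 6 of 20 (20.7% of all). The largest difference was that of Fbrsl1 1428403_PM_at, which read 6.65 and 5.95 in wild type and 7.70 and 7.25 in knockout, 1.17 ± 0.26 (95% interval 0.60 to 1.75, adjusted p = 0.0702). Without wild-type mouse 1 its adjusted p was 0.0121 (limma), while calls over all probe sets went from 336 to 2922. Of the other Fbrsl1 probe sets, 1428404_PM_at (6.45 and 6.10 against 7.07 and 6.56) and 1458511_PM_at (7.47 and 7.38 against 7.50 and 7.67) also had both knockout arrays higher there. The brightest read 8.53 and 8.11 against 8.29 and 8.51, with overlap. Cdh13 1454015_PM_a_at read 7.79 and 8.31 against 7.15 and 7.74, -0.60 ± 0.29 (adjusted p = 0.408). In these arrays the mean of 5 endothelial genes was 6.08 and 6.08 in wild type and 6.42 and 7.05 in knockout, and its part in any difference was not tested. Whether the knockout effect differed between alveolar progenitors and myoepithelial cells was tested as an interaction. Of the 20 probe sets 0 passed (0.131% of all did), with a lowest adjusted p of 0.543 (limma) for Mal 1417275_PM_at. There 4 had an unadjusted p under 0.05, and without the count over all probe sets this cannot be read as high or low.

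The 9 genes differed in how their levels were ordered over the populations. Alveolar progenitors and myoepithelial cells could be compared without any array that chose the genes, and 8 of 20 probe sets were higher in alveolar progenitors (16.4% of all) and 3 lower (16.3% of all), with a median difference of 0.35 against -0.02 over all. Mal was higher by 2.87 ± 0.21 and 2.04 ± 0.19 (adjusted p = 6.4e-07 and 6.7e-06, limma). The 3 Cdh13 probe sets that were high in myoepithelial cells were lower, by -4.10 ± 0.38, -2.82 ± 0.20 and -2.10 ± 0.21 (adjusted p = 4.9e-06, 5.7e-07 and 9.2e-06). Dkkl1 was higher by 1.19 ± 0.25 (adjusted p = 0.00327), but by 0.66 ± 0.36 (adjusted p = 0.221) with wild-type arrays only and by 1.72 ± 0.36 (adjusted p = 0.00443) with knockout arrays only. All 3 probe sets of Ahcyl2 were higher by 0.73 to 0.89. Gatb 1444502_PM_at and Rhbdl2 1442819_PM_at were higher by 0.63 and 0.52. The call of Gatb 1444502_PM_at was lost with either genotype alone (adjusted p = 0.161 and 0.211), and Rhbdl2 1442819_PM_at differed by 0.87 in wild type and by 0.18 (adjusted p = 0.578) in knockout. No probe set of Dus2, Chst8 or Fbrsl1 was called. Without knockout mouse 2, 6 of the 20 were called.

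Counts of Sca1-positive cells against the other populations are fixed in part by the choice, because the knockout arrays that chose the genes enter them, and they support nothing about the members. Averaged over both genotypes, 15 of 20 probe sets were higher in Sca1-positive cells than in alveolar progenitors (14.3% of all) and 0 lower (14.6% of all), and all 9 genes had at least 1 called. Against myoepithelial cells 16 of 20 were higher (22.2% of all) and 3, of Cdh13, were lower (23.1% of all). With wild-type arrays only, 6 of 20 were called against alveolar progenitors (18.9% of all), 5 higher and 1 lower, and 16 of 20 against myoepithelial cells (37.2% of all), 12 higher and 4 lower.

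In wild type, Dkkl1 was already 1.94 ± 0.31 higher in Sca1-positive cells than in alveolar progenitors, and Ahcyl2 was 1.52 ± 0.21 and 0.78 ± 0.23 higher by its 2 brighter probe sets. Chst8 was 0.80 ± 0.23 higher, from values at the bottom of the scale. Gatb and Dus2 differed by 0.34 ± 0.36 and -0.01 ± 0.29, and the 4 Cdh13 probe sets by -0.05 to 0.05. Mal was lower by -0.67 ± 0.26 and -0.87 ± 0.24. In knockout the same differences were 2.78 for Gatb, 1.99 for Dus2, 3.31 for Cdh13 1434115_PM_at and 1.68 for Mal 1432558_PM_a_at. The wild-type Sca1-positive arrays were among those the choice used, so these values are a description.

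Between non-clonogenic luminal cells and ductal progenitors, averaged over genotypes, 0 of 20 probe sets were called (limma, 0.564% of all were). Of the 20, 1 had an unadjusted p under 0.05, as did 2788 of all 45037. The differences ran from -0.53 to 0.24 with a median of 0.01. Both Mal probe sets were lower in non-clonogenic luminal cells, by -0.53 ± 0.19 and -0.45 ± 0.21 (adjusted p = 0.599 and 0.808).

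Among themselves, 8 of the 9 genes ran in parallel over the 16 arrays, by their brightest probe sets. Their pairwise correlations were 0.70 to 0.97, with Dkkl1 and Ahcyl2 the closest pair. Cdh13 correlated with the others at -0.22 to 0.38. The points share mice and the arrays that chose the genes, so these values describe the arrays only. The 5 genes whose pattern was most like that of the members were Gadd45g (r = 0.977 over 16 arrays), which responds to growth arrest and DNA damage, Ghdc (0.975), Grk3 (0.967), a kinase of G protein-coupled receptors, Rundc1 (0.960) and Mettl7a1 (0.959). Gadd45g was higher in knockout by 1.93 ± 0.41 and 2.57 ± 0.41 in the Sca1-positive populations and by 0.09 and 0.07 ± 0.41 in alveolar progenitors and myoepithelial cells.

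The mean of the 8 genes other than Cdh13 was 7.53 and 8.10 in wild-type and 9.12 and 9.70 in knockout non-clonogenic luminal cells, and 7.19 and 8.20 against 9.59 and 9.66 in ductal progenitors. The mean of 12 cell cycle genes ran the other way in the same arrays, at 10.1 and 9.26 against 7.23 and 6.77, and 10.0 and 9.30 against 7.10 and 6.67. In alveolar progenitors the cell cycle mean was 8.70 and 9.89 in wild type and 7.42 and 7.02 in knockout, while the mean of the 8 genes was 7.40 and 7.28 against 7.10 and 7.39. In myoepithelial cells it was 7.78 and 9.23 against 6.58 and 6.67, while the 8 genes read 6.63 and 6.61 against 6.52 and 6.58. Of the members, Dkkl1 was higher in both knockout alveolar arrays, as given above. The part of the cell cycle genes in the members' levels was not tested.

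**Figure D4:**
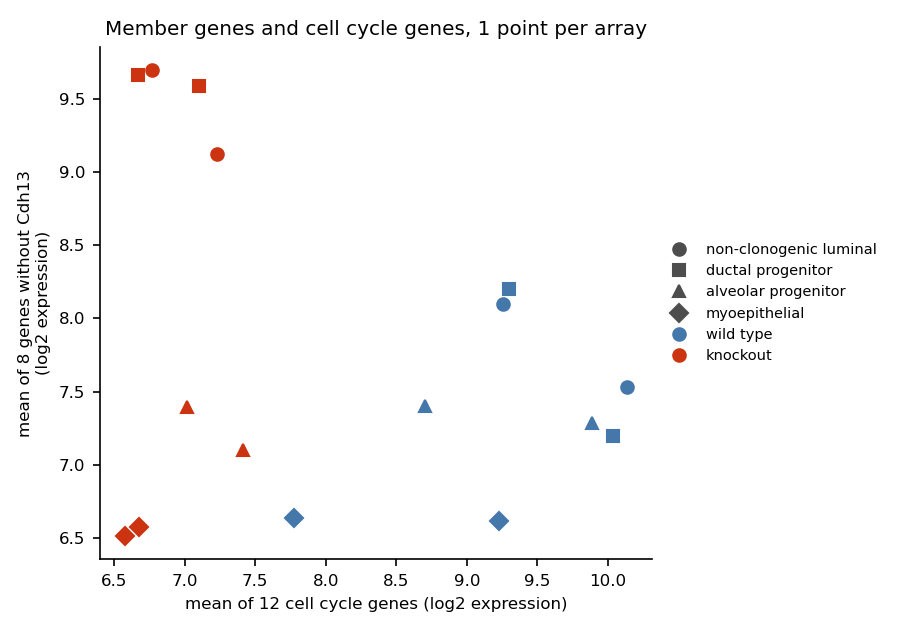
Mean log2 expression of the brightest probe sets of 8 members, Cdh13 left out (y axis), against the mean of 12 cell cycle genes (x axis), 1 point per array, with shape for population and colour for genotype. The 4 knockout Sca1-positive arrays stand at the upper left, from 9.12 to 9.70, at cell cycle means of 6.67 to 7.23. The knockout alveolar and myoepithelial arrays, at cell cycle means of 6.58 to 7.42, read 6.52 to 7.39. The part of the cell cycle genes was not tested.

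Other measures also moved with genotype in these arrays. The hormone-sensing mean was 10.06 and 10.15 against 10.65 and 10.79 in non-clonogenic luminal cells and 9.77 and 9.99 against 10.75 and 10.74 in ductal progenitors, where 1 and 4 of 10 genes passed the test. The mean of 5 fibroblast genes was 8.16 and 7.37 against 6.99 and 6.84 in ductal progenitors, where 1 was called lower. In non-clonogenic luminal cells the fibroblast mean was 6.98 and 6.98 against 6.65 and 6.15, and 0 were. The mean of 11 alveolar genes was 8.76 and 8.30 against 7.91 and 8.37 in ductal progenitors, with overlap, where 3 were called lower. In non-clonogenic luminal cells the alveolar mean was 6.29 and 6.28 against 6.32 and 6.35, and 0 were. The mean of 7 leukocyte genes was 5.18 and 5.32 against 5.48 and 5.40 in ductal progenitors, where 1 of them, Csf1r, was called higher, and 5.39 and 5.34 against 5.47 and 5.38 in non-clonogenic luminal cells, where 0 were. Of these, Ptprc and Cd3e lay under the lower quartile in all 16 arrays and Csf1r, Cd52 and Laptm5 in 0. The 3′ minus middle signal of Gapdh, a sign of RNA quality, was 0.60 and 0.39 in wild-type and 0.15 and 0.12 in knockout ductal progenitors, and 0.42 and 0.21 against 0.43 and -0.03 in non-clonogenic luminal cells. Their part in the rise of the 9 genes was not tested.

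Close relatives of the 9 genes were looked at from a list of 34, of which 32 were measured. In non-clonogenic luminal cells 0 of 32 passed the test, against 583 of all 45037 probe sets. In ductal progenitors 2 were higher and 0 lower, against 1037 higher and 1595 lower of all 45037. Whether 2 of 32 exceeds the share of all probe sets was not tested. In alveolar progenitors and myoepithelial cells 0 of 32 passed (limma, 0.318% and 0.746% of all probe sets did). The median differences were 0.03, 0.02, -0.05 and 0.01, against 0.05, 0.06, 0.01 and -0.01 over all probe sets. The 2 called higher were Mall, a MAL-like proteolipid, and Rhbdf2, a rhomboid relative without protease activity. Mall read 7.58 and 8.00 in wild-type and 9.61 and 9.12 in knockout ductal progenitors, 1.58 ± 0.36 (adjusted p = 0.0323), and was 1.39 ± 0.36 higher in non-clonogenic luminal cells (adjusted p = 0.0826). Rhbdf2 differed by 0.93 ± 0.24 in ductal progenitors (adjusted p = 0.0474).

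The partners of Gatb in its enzyme were not higher with it. Qrsl1, subunit A, differed by -0.33 ± 0.23 and -0.51 ± 0.23 in the Sca1-positive populations, and Gatc, subunit C, by 0.04 ± 0.13 and -0.11 ± 0.13. Of the other dihydrouridine synthases, Dus1l differed by -0.02 and 0.32 ± 0.20, Dus3l by 0.10 and 0.67 ± 0.19 and Dus4l by -0.83 and -0.84 ± 0.31. Ahcyl1, the closest relative of Ahcyl2, differed by 0.41 and 0.49 ± 0.23, and Ahcy, the hydrolase itself, by -0.76 and -0.65 ± 0.24. The cadherins Cdh1, Cdh2, Cdh3, Cdh5 and Cdh11 differed by -0.19 to 0.17 and the dickkopf genes Dkk1 to Dkk4 by -0.16 to 0.25. None of these passed the test (adjusted p of 0.0586 for Dus3l in ductal progenitors and above for the others, limma). Ears2, also listed with Gatb, read 6.95 and 6.85 in wild-type and 7.14 and 7.54 in knockout non-clonogenic luminal cells. In ductal progenitors Ears2 read 6.89 and 6.83 against 7.42 and 7.32. Its knockout arrays were thus the higher ones in both, but it passed the test in neither.

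**Figure D5:**
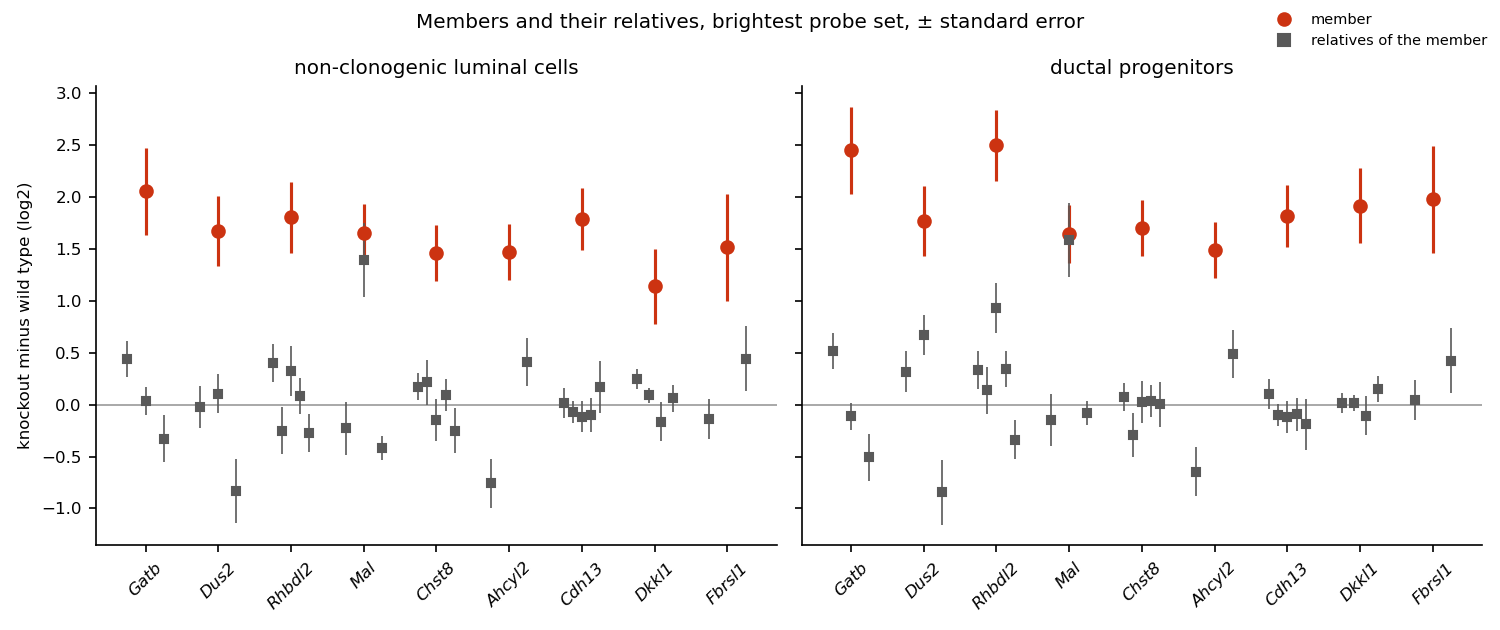
Knockout minus wild type (y axis, log2) with the standard error of the fit for the brightest probe set of each member (circles) and of its listed relatives (squares), grouped by member (x axis), in both Sca1-positive populations. The members lie between 1.1 and 2.5 and, apart from Mall at 1.39 and 1.58, the relatives lie under 1.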

How the data were processed

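Values are log2 expression per probe set as deposited by the authors, and RMA and limma are named in the submitters' processing notes without role or version. The labels' protocols record whole-transcriptome amplification from 15 ng of RNA and biotin labelling of 8 µg of cDNA, but no background correction or filter. The array's annotation gave 1 symbol for 28898 probe sets, and 28689 matched the GRCm38.p6 gene table by Entrez identifier, with 0 symbols differing. The 104 controls were left out. Replicate arrays correlated at 0.975 to 0.991 across probe sets.

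All 16 arrays entered one limma model (3.58.1, R 4.3.3) with 8 group means, the mouse as a random block (consensus correlation 0.0372) and an eBayes trend, with 8 residual and 3.75 prior degrees of freedom. Calls used a Benjamini-Hochberg adjusted p under 0.05 over 45037 probe sets. Columns of values without a sample numbered 0. The model was tested on simulated data. Alternatives were the parent pair as a block, array weights, quantile normalization, no mouse block, no trend, a filter on dim probe sets, the brightest probe set per gene, each population fitted alone, 1 genotype only and leaving out each mouse. Replicate numbers follow accession order. The pairing comes from the parents in the labels. Deviations of same-pair mice correlated at 0.07, -0.02, 0.07 and -0.08 in the 4 populations.

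Every probe set of the members is named, with Cpeb2, the listed relatives (brightest probe set), up to 4 genes per marker list and the 5 genes of most similar pattern. The members and lists were chosen with earlier results of these data known. The comparison of alveolar with myoepithelial cells, the interaction, the values by genotype and the control probe sets were added after seeing the data.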

Additional observations from a re-analysis of the deposited data

Results flagged for a closer look

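In 10 cases a probe set of the members had both knockout arrays below both wild-type arrays outside the Sca1-positive cells, while both lay above in each Sca1-positive population. The difference between populations was not tested, because the Sca1-positive values chose the genes. In alveolar progenitors these were Dus2 (-0.29), Rhbdl2 1442819_PM_at (-0.92), Mal 1417275_PM_at (-0.83) and Mal 1432558_PM_a_at (-0.91). In myoepithelial cells they were Gatb 1424282_PM_at (-0.22), Dus2 (-0.25), Rhbdl2 1442819_PM_at (-0.23), Mal 1432558_PM_a_at (-0.26), Cdh13 1431824_PM_at (-0.18) and Cdh13 1454015_PM_a_at (-0.6). Of these, Cdh13 1431824_PM_at was at the bottom of the scale in every array, and Rhbdl2 1442819_PM_at lay above the lower quartile in 2 of 4 myoepithelial arrays. In myoepithelial cells Mal 1417275_PM_at went the other way, at 4.63 and 4.80 in wild type against 5.04 and 5.20 in knockout. The other probe sets of Gatb, Rhbdl2 and Cdh13 overlapped between genotypes there, as did Rhbdl2 1440618_PM_at in alveolar progenitors. The rises in the Sca1-positive populations are those given with each gene. Knockout arrays lie below with no overlap in 19.8% and 20.7% of all probe sets in these populations.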

How the results depend on the processing

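With 2 mice per genotype, the numbers of probe sets called depended on single mice. Knockout against wild type called 583 in non-clonogenic luminal cells (0 without knockout mouse 2 to 1808 without wild-type mouse 2), 2632 in ductal progenitors (36 without knockout mouse 2 to 7575 without wild-type mouse 2), 143 in alveolar progenitors (1 without knockout mouse 1 to 532 without wild-type mouse 1) and 336 in myoepithelial cells (16 without knockout mouse 1 to 2922 without wild-type mouse 1). The population differences called 13037 for Sca1-positive cells against alveolar progenitors (6673 without knockout mouse 2, 7112 without knockout mouse 1, up to 12117), 20434 against myoepithelial cells (12541 and 13087 without knockout mouse 2 and 1, up to 20318), 14711 for alveolar progenitors against myoepithelial cells (6889 and 7616 without knockout mouse 2 and 1, up to 13313) and 254 between the Sca1-positive populations (53 without knockout mouse 2 to 683 without wild-type mouse 2). Fits to the 4 arrays of a population alone called 15, 0, 62 and 0 for the knockout. Array weights called 563 in alveolar progenitors and 106 in myoepithelial cells. With the brightest probe set per gene, which tests 17097, the counts were 353, 1272 and 173 for the knockout in non-clonogenic luminal cells, ductal progenitors and myoepithelial cells, and 5110, 8400, 6248 and 136 for the population differences in the order above. Wild-type arrays only called 8501 for Sca1-positive cells against alveolar progenitors and 8657 for alveolar against myoepithelial cells, and knockout arrays only 9304 for the latter and 64 between the Sca1-positive populations.

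Of the 20 member probe sets, 0 were called for the knockout in alveolar progenitors, 1 with array weights (Rhbdl2 1442819_PM_at, adjusted p = 0.0278, limma). In myoepithelial cells 0 were called, and 0 to 1 when a mouse was left out (Fbrsl1 1428403_PM_at without wild-type mouse 1, adjusted p = 0.0121). For alveolar against myoepithelial cells 11 were called, with 6 (without knockout mouse 2) to 12 when a mouse was left out. By 1 probe set per gene, 7, 9 and 4 of 9 were called for Sca1-positive against alveolar, Sca1-positive against myoepithelial and alveolar against myoepithelial cells. With wild-type arrays only, 6 of 20 were called against alveolar progenitors, and the sign turned for Dus2 (-0.0122), Mal 1417275_PM_at (-0.6722), Mal 1432558_PM_a_at (-0.8727) and Cdh13 1434115_PM_at (-0.0518). Against myoepithelial cells it turned for Fbrsl1 1434029_PM_at (-0.0059) with wild-type and for Cdh13 1454015_PM_a_at (0.0537) with knockout arrays only. The replicate block for parent pair gave 713, 3237, 164 and 375 calls for the knockout in the order above, all within 1.5 times, and changed the call of Gatb 1424282_PM_at between alveolar and myoepithelial cells (0.77, adjusted p = 0.0197) and of Fbrsl1 1458511_PM_at between Sca1-positive cells and alveolar progenitors (0.41, adjusted p = 0.0301). The causes were not tested. Probe sets under the lower quartile, such as Chst8 outside the Sca1-positive cells, have no lower limit that these arrays can show.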
